A study of Homo sapiens with 12 samples.

Results

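The glycolytic and hypoxia-inducible genes of 2 non-small cell lung cancer lines were followed through treatment with ISP-I. A list of 39 genes was matched by symbol to the 19973 genes of the expression table, and every listed gene was found once. The list holds 4 glucose and lactate transporters, 17 glycolytic enzymes and 5 genes grouped as regulators of glycolytic flux, the glycogen synthase GYS1 among them. It also holds 4 genes of the hypoxia-inducible factor (HIF) switch itself, and 9 HIF targets outside glycolysis. ISP-I, isovalerylspiramycin I, is a macrolide purified from the antibiotic carrimycin. H460 and A549 are human tumor lines labelled wild type, a label that does not exclude the mutations a tumor line brings: the study describes both as homozygous for inactivating mutations of KEAP1, the adaptor that targets the antioxidant factor NRF2 for destruction. They were either left non-treated or given ISP-I at 10 μM for 48 h, and bulk RNA-seq was made from 3 libraries in each of the 4 groups (12 in all). Each line is 1 line and not a set of patients, and no source used here says whether the 3 libraries of a group came from separate cultures, so the p-values measure the spread between libraries, which may be technical. In bulk RNA, fewer cells with a transcript and less of it per cell cannot be told apart.

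Glycolysis splits glucose into pyruvate, which lactate dehydrogenase turns into lactate for export, and tumor cells often run it fast even with oxygen present. HIF is a pair of proteins whose alpha subunit is hydroxylated by prolyl hydroxylases in the presence of oxygen and then destroyed. When oxygen is low the alpha subunit persists, binds DNA at short motifs with a CGTG core, and raises transcripts for glucose uptake, nearly every glycolytic step, lactate export, blood vessel growth and mitochondrial clearance. HIF-1 alpha is controlled largely at the protein level, which RNA-seq does not measure.

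Values are FPKM, fragments scaled for transcript length and for the mapped fragments of a library, a scale on which levels of genes of different length can be set side by side. Fold changes are given on the log2(FPKM + 1) scale with their standard error (SE), which understates the change of genes near 1 FPKM and below. A gene was called when it changed over 2-fold with an adjusted p under 0.05 from limma across all genes tested, and libraries are named by number, in the order of the table's columns. Libraries held 14225849 to 17874422 reads in genes. Division by median-of-ratios factors, a scaling by the middle of the genes in place of the total, moved the median change of all genes in H460 from -0.15 to 0.01, a shift of 0.15, while the shift in A549 was -0.02. Under that scaling the calls over all genes in H460 went from 1409 higher and 2047 lower to 1957 higher and 1511 lower. KRT8 and KRT18, keratins of simple epithelium, were above 66 FPKM in every library, while EPCAM stood at no more than 0.148 FPKM in H460 and CDH1 at no more than 0.0458. Over 10 markers of leukocytes, endothelium and fibroblasts the summed level was 0.809 to 1.68 FPKM per library.

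In H460 the transporters SLC2A1 and SLC16A3, which bring glucose in and carry lactate out, fell after ISP-I together with 6 glycolytic enzymes, while ADM, KDM3A, VEGFA, HIF1A and ENO2 rose. In A549, ADM, HK2, NDRG1 and HK1 rose and no member was called lower. Of 38 members tested in H460 (CA9 was below the filter of a mean of 0.1 FPKM), 5 were called higher (13.2%, against 10.5% of the 13423 genes tested) and 10 lower (26.3%, against 15.2%). At any fold change, 8 members (21.1%) passed the adjusted p upward and 17 (44.7%) downward, against 27.6% and 41.5% of all genes. Of 39 members tested in A549, 4 were called higher (10.3%, against 4.2% of 13705 genes) and 0 lower (against 3.51%). There, 11 (28.2%) passed upward at any fold change and 10 (25.6%) downward, against 30.5% and 27% of all genes. The median change of the members was -0.33 in H460, beside -0.15 for all genes, and 0.01 in A549, beside 0.02. The share called higher in H460 and both shares at any fold change in A549 thus lay near those of the whole table. In H460 at any fold change, the downward share also lay near that of the whole table, and the upward share lay somewhat under it. The shares called lower in H460 and higher in A549 lay above those of the whole table, on 10 and 4 genes. Under median-of-ratios scaling the members' median in H460 was -0.11 and the calls were 6 higher and 9 lower, with PFKFB3 gained and PFKL lost.

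**Figure D1:**
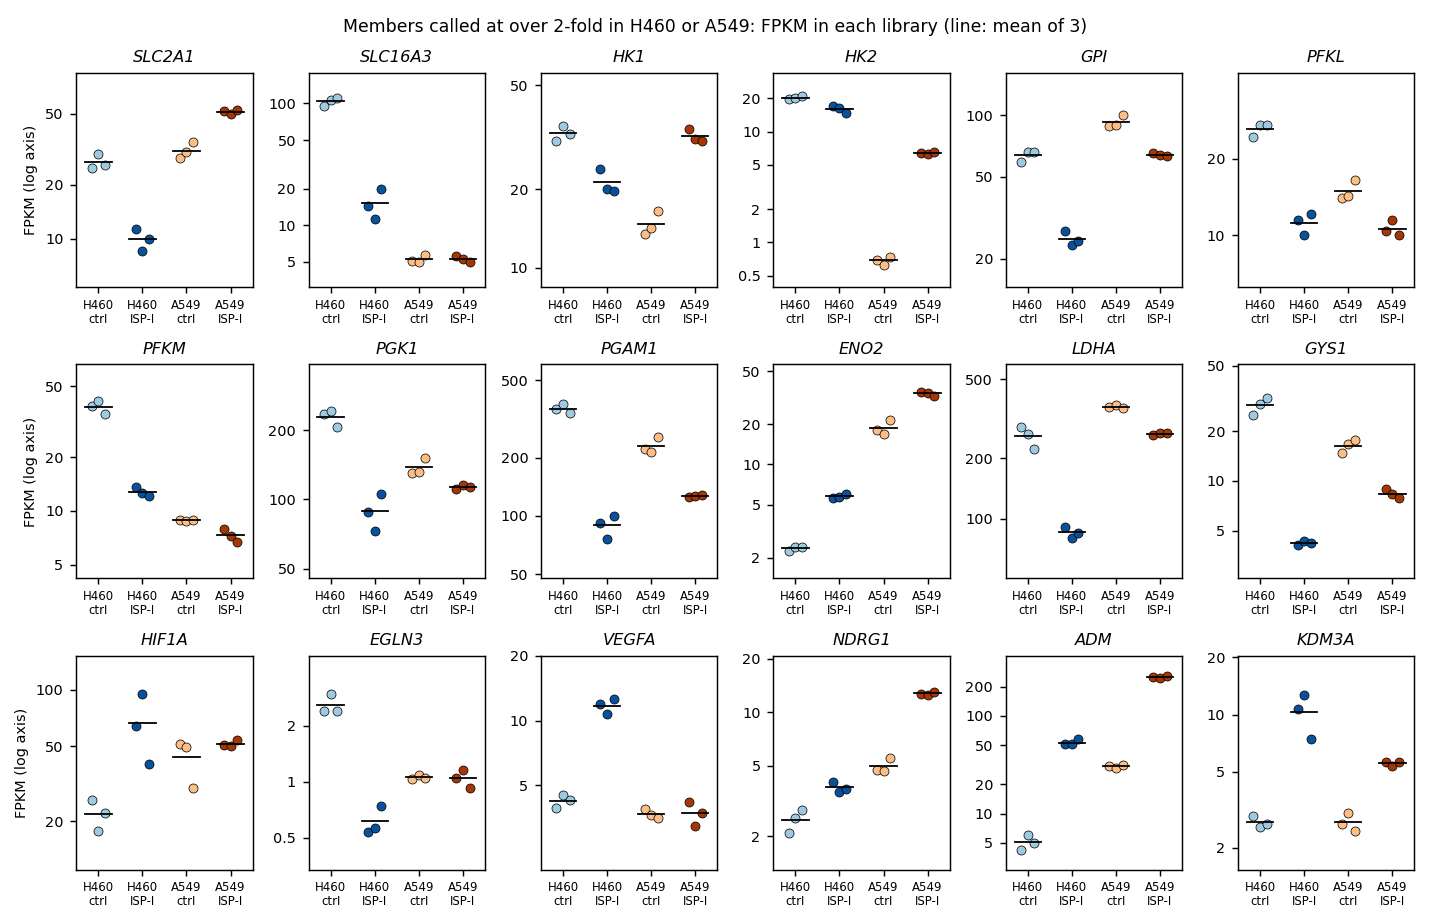
FPKM (log axis, a separate range for each gene) of the 18 members called at over 2-fold in H460 or in A549, with 1 point for each library and a line at the mean of 3. SLC16A3 falls from 104 to 15.3 FPKM in H460 and lies near 5 in both A549 groups, HK2 lies between 14.7 and 21.0 in H460 and rises from under 1 to over 6 in A549, and ADM rises in both lines.

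The transporters divided between the lines. SLC16A3, the monocarboxylate transporter MCT4 that exports lactate from strongly glycolytic cells, was at 96.0, 106 and 111 FPKM in the H460 control libraries and at 14.5, 11.3 and 19.97 FPKM after ISP-I. All ISP-I libraries lay far under the lowest control, a 6.83-fold lower mean (log2 fold change -2.73, SE 0.19, adjusted p = 5.11e-06), the largest decrease among the members in H460 on this log2 scale. In A549 the transporter was at 5.05, 5.04 and 5.74 FPKM without and at 5.61, 5.26 and 4.97 FPKM with ISP-I, with overlapping groups (log2 fold change 0.00, SE 0.08, adjusted p = 0.989).

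SLC2A1, the glucose transporter GLUT1, moved in opposite directions. It was at 24.9, 29.9 and 25.6 FPKM in H460 controls and at 11.3, 8.58 and 9.93 FPKM after ISP-I (log2 fold change -1.35, SE 0.13, adjusted p = 3.46e-05). In A549 the controls were at 28.2, 30.4 and 34.5 FPKM and the ISP-I libraries at 51.9, 49.4 and 52.5 FPKM (log2 fold change 0.71, SE 0.08, adjusted p = 0.00018). The groups did not overlap in either line. The untreated lines overlapped each other (adjusted p = 0.134 between them), while after ISP-I all A549 libraries stood far above all H460 libraries. SLC2A3, the high-affinity glucose transporter GLUT3, rose in H460 from 10.9 to 14.4 FPKM over the controls to 17.96 to 20.5 FPKM (log2 fold change 0.56, SE 0.13, adjusted p = 0.00534) and fell slightly in A549 (-0.26, SE 0.08, adjusted p = 0.0212).

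These changes altered the make-up of each pair, a measure that does not depend on how libraries are scaled against each other. SLC2A1 supplied 67.3% ± 2.91 (SD, n = 3) of the summed FPKM of SLC2A1 and SLC2A3 in H460 controls and 33.6% ± 3.42 after ISP-I. In A549 its share went from 81.8% ± 2.25 to 90.2% ± 0.323. The pair therefore changed its leading member in H460 and not in A549. For lactate export, SLC16A3 gave 82.5% ± 2.57 of its sum with SLC16A1 (MCT1) in H460 controls and 35.5% ± 8.78 after ISP-I. Here too the leading member changed in H460. SLC16A1 was at 20.4 to 24.8 FPKM in the controls and 24.7 to 30.2 FPKM after ISP-I, where its ranges overlapped (adjusted p = 0.0607).

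**Figure D2:**
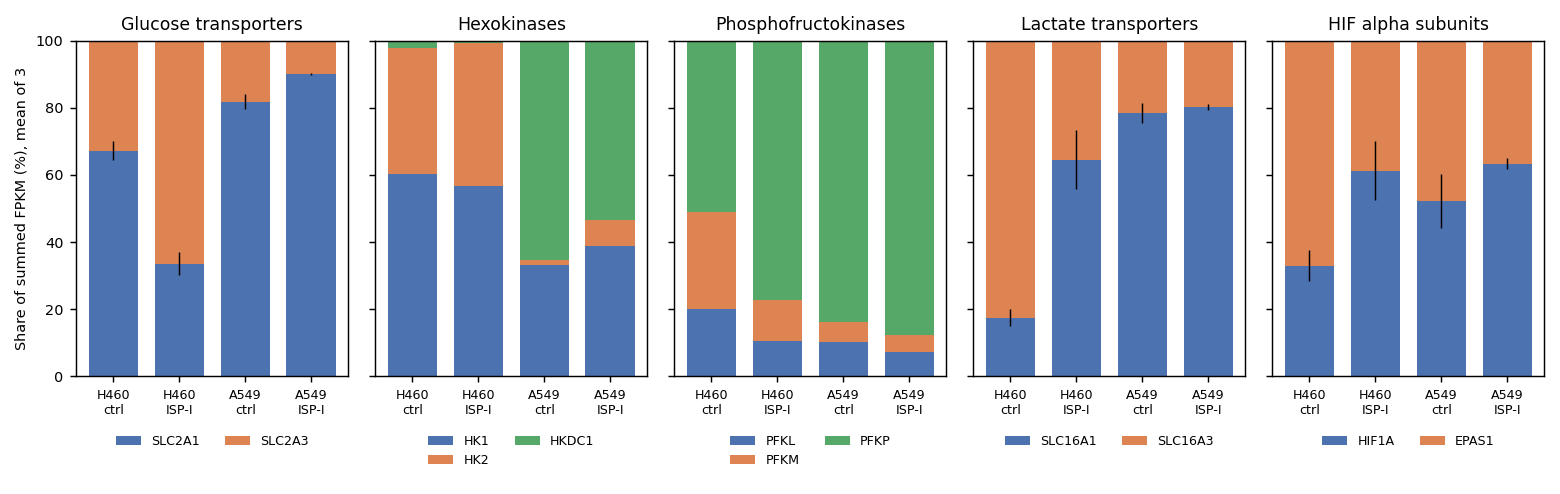
Share of the summed FPKM (%, mean of 3 libraries) held by each gene of 5 families in the 4 groups, with SD bars at the boundary in the panels of 2 genes. The SLC2A1 and SLC16A3 shares drop in H460, HKDC1 fills most of the hexokinase bar in A549, PFKP grows from 50.9% to 77.4% in H460, and HIF1A overtakes EPAS1 in H460.

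Hexokinases, which trap glucose in the cell as glucose-6-phosphate, rose in A549. HK2, the inducible form, was at 0.701, 0.632 and 0.744 FPKM in A549 controls and at 6.37, 6.32 and 6.54 FPKM after ISP-I. That is 9.26-fold on the ratio of means (log2 fold change 2.13, SE 0.07, adjusted p = 5.12e-07), yet all A549 ISP-I libraries stayed under the H460 ones. In H460, HK2 was at 19.6, 19.96 and 21.0 FPKM without and 17.0, 16.2 and 14.7 FPKM with ISP-I (-0.32, SE 0.11, adjusted p = 0.0271), a decrease that did not pass after median-of-ratios scaling (-0.05, adjusted p = 0.7).

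HK1, the widely expressed hexokinase, crossed over between the lines. It went from 13.5, 14.2 and 16.6 FPKM to 33.9, 31.2 and 30.5 FPKM in A549 (log2 fold change 1.06, SE 0.09, adjusted p = 2.91e-05) and from 30.7, 34.8 and 32.6 FPKM to 23.9, 20.1 and 19.6 FPKM in H460 (-0.60, SE 0.12, adjusted p = 0.00213). After ISP-I the A549 libraries thus stood where untreated H460 had been. HKDC1, a further hexokinase that is not among the 39, was at 28.4 to 29.9 FPKM in A549 controls and 43.3 to 45.01 FPKM after ISP-I, so HK2 made up 1.56% of the 3 hexokinases there before and 7.81% after treatment.

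Among the enzymes that follow, GPI, the isomerase that makes fructose-6-phosphate, fell from 59.1, 66.2 and 66.4 FPKM to 27.2, 23.2 and 24.3 FPKM in H460 (-1.32, SE 0.12, adjusted p = 1.93e-05). In A549 it fell by less, from 88.2 to 100 FPKM down to 63.1 to 65.3 FPKM (-0.52, SE 0.07, adjusted p = 0.000398).

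Phosphofructokinase, which commits sugar to glycolysis, is built from 3 isoforms, and in H460 they parted. PFKM, the muscle form, dropped from 38.6, 41.3 and 35.0 FPKM to 13.6, 12.5 and 12.1 FPKM (-1.52, SE 0.11, adjusted p = 7.7e-06). PFKL, the liver form, dropped from 24.4, 27.2 and 27.2 FPKM to 11.5, 10.1 and 12.1 FPKM (-1.16, SE 0.12, adjusted p = 3.69e-05), although median-of-ratios scaling brought it to -0.90 and ended the call. PFKP, the platelet form, was at 60.1 to 74.1 FPKM in controls and 71.4 to 90.7 FPKM after ISP-I, with overlapping libraries (adjusted p = 0.0993). PFKP consequently went from 50.9% ± 3.03 to 77.4% ± 1.496 of the phosphofructokinase sum in H460 (SD, n = 3), and from 83.8% to 87.6% in A549. The sum itself was 1.24-fold lower in H460 on FPKM, but nearly level under median-of-ratios scaling (a ratio of 0.98).

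The steps after the split into triose sugars held further decreases. PGAM1, phosphoglycerate mutase, was at 355, 378 and 338 FPKM in H460 controls and at 91.8, 76.3 and 99.9 FPKM after ISP-I, 3.997-fold lower (-1.99, SE 0.15, adjusted p = 7.21e-06). It also had the second largest decrease of the list in A549, from 221, 213 and 255 FPKM to 126, 127 and 128 FPKM (-0.85, SE 0.08, adjusted p = 6.81e-05). Neither line's groups overlapped.

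PGK1, phosphoglycerate kinase, which makes the first ATP of the pathway, fell in H460 from 234, 241 and 207 FPKM to 88.1, 72.5 and 105 FPKM (-1.36, SE 0.17, adjusted p = 0.000119). In A549 it went from 130 to 152 FPKM down to 111 to 115 FPKM (-0.28, SE 0.08, adjusted p = 0.0162). LDHA, the subunit of lactate dehydrogenase that favors lactate formation, fell in H460 from 289, 264 and 224 FPKM to 91.1, 80.2 and 85.1 FPKM (-1.58, SE 0.14, adjusted p = 2.21e-05). In A549 LDHA was at 358 to 370 FPKM without and 262 to 269 FPKM with ISP-I (-0.45, SE 0.07, adjusted p = 0.000687), so its groups were apart in both lines.

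ENO2, the neuronal enolase, was the sole one of the 17 listed enzymes called higher in H460. It rose from 2.24, 2.40 and 2.40 FPKM to 5.65, 5.68 and 5.97 FPKM (1.02, SE 0.10, adjusted p = 3.61e-05), just past the 2-fold limit, and stood at 0.99 without control 1 or without ISP-I library 3. In A549 it went from 18.2, 17.0 and 21.6 FPKM to 35.2, 34.6 and 32.8 FPKM (0.83, SE 0.09, adjusted p = 0.000136). ENO1, the main enolase, was at 709 to 1097 FPKM in H460 and 665 to 827 FPKM in A549 and passed in neither, so ENO2 was 0.244% of enolase FPKM in H460 controls and 0.707% after ISP-I.

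GAPDH, the glyceraldehyde-3-phosphate dehydrogenase that served the study as its reference gene in quantitative PCR, had the highest level of all members. It was at 2084, 2286 and 2130 FPKM in H460 controls and at 1494, 1245 and 1963 FPKM after ISP-I. The groups did not overlap, but the ISP-I libraries were widely spread and the decrease did not pass (-0.49, SE 0.24, adjusted p = 0.0921). Without ISP-I library 3, the closest to the controls, it was -0.67 with adjusted p = 0.0027. In A549, GAPDH was at 1299 to 1573 FPKM without and 1389 to 1419 FPKM with ISP-I (-0.01, SE 0.11, adjusted p = 0.947), a sign that turned under quantile normalization. PKM, pyruvate kinase, passed in neither line (-0.24 in H460 and -0.01 in A549), and TPI1, triosephosphate isomerase, fell in both at under 2-fold (-0.85, adjusted p = 0.00519 in H460 and -0.51, adjusted p = 0.01 in A549). PKM, ENO1, PDK1, EPAS1 and BNIP3, none of which passed in H460, turned from a negative to a positive sign there under median-of-ratios scaling.

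ALDOA, LDHB and EGLN1 are uncertain, since in GENCODE v44 42.8%, 33.4% and 55.8% of their exonic bases lie also in exons of a protein-coding gene on the same strand, and the counting setting for such reads is not stated. ALDOA, the main aldolase of most tissues, was at 0.424 to 1.63 FPKM and the overlapping AC093512.2 at 0.415 to 2.24 FPKM. LDHB was under 1 FPKM in every library and fell in H460 from 0.405 to 0.466 FPKM to 0.0375 to 0.136 FPKM (-0.41, SE 0.06, adjusted p = 0.000407). The levels of both were among the lowest of the listed enzymes. ALDOC, the brain aldolase, was at 6.47 to 7.58 FPKM in H460 controls and 4.32 to 7.17 FPKM after ISP-I (adjusted p = 0.124), and in A549 rose from 0.389 to 0.780 FPKM to 0.961 to 1.08 FPKM (0.37, SE 0.10, adjusted p = 0.0107). Over the 17 enzymes, H460 had 1 call upward (5.88%, against 10.5% of all genes) and 6 downward (35.3%, against 15.2%), with a median change of -0.49 beside -0.15 for all genes. Under median-of-ratios scaling these were 1 and 5, with a median of -0.33 beside 0.01. A549 had 2 calls upward (11.8%, against 4.2%) and 0 downward (against 3.51%), with a median of -0.01.

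**Figure D3:**
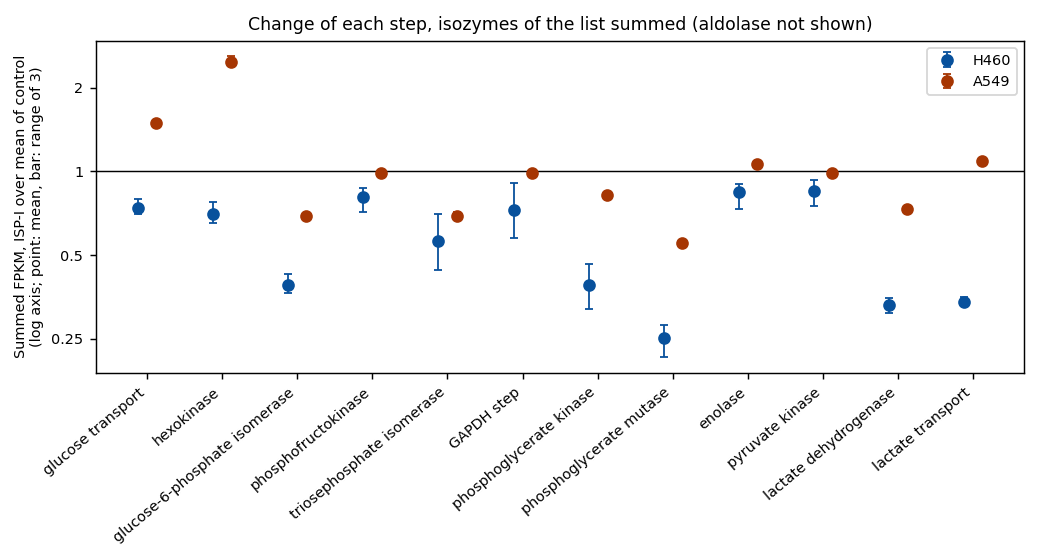
Summed FPKM of the listed isozymes at each step after ISP-I, divided by the mean of the controls of the same line (log axis), with a point for the mean and a bar for the range of the 3 ISP-I libraries; aldolase is left out because reads of ALDOA are uncertain. H460 lies under 1 at every step (enolase and pyruvate kinase reach 1.03 under median-of-ratios scaling), lowest at phosphoglycerate mutase with 0.25. A549 lies at 2.48 for hexokinase and 0.552 for phosphoglycerate mutase. The hexokinase point sums HK1 and HK2 only, and with HKDC1 the A549 ratio was 1.85.

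Summed over isozymes, the changes were uneven along the pathway. In H460 the lactate dehydrogenase sum was 3.03-fold lower after ISP-I, lactate transport 2.95-fold lower, phosphoglycerate kinase 2.57-fold lower and glucose-6-phosphate isomerase 2.56-fold lower. Enolase, pyruvate kinase and phosphofructokinase were 1.18-fold, 1.18-fold and 1.24-fold lower. Under median-of-ratios scaling the enolase and pyruvate kinase sums in H460 turned to ratios of 1.03 and 1.03. The other 10 steps shown stayed under 1, phosphofructokinase barely so at 0.98. In A549 the sum of HK1 and HK2 was 2.48-fold and the glucose transport sum 1.4999-fold higher, against a phosphoglycerate mutase sum 1.81-fold lower. With HKDC1, which held 65.3% of hexokinase FPKM in A549 controls, the hexokinase sum was 1.85-fold higher in A549. The 17 enzymes held 1.90% ± 0.113 of all FPKM in H460 controls and 1.36% ± 0.111 after ISP-I, and 1.64% ± 0.106 and 1.48% ± 0.0126 in A549 (SD, n = 3).

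Members that moved in different directions carried the same short promoter motif. RefSeq promoters (assembly GRCh38.p14, from 250 bases before to 50 bases after each start) were at hand for 33 of the 39 members, 61 promoters in all. The letters ACGTG, read on either strand, were in 37.7% of these promoters and in 21.4% of 35116 promoters of all genes, and ACGTG or GCGTG in 68.9% against 48.5%. A gene with several starts counts several times in these shares, and the 35116 promoters belong to 27305 genes. By gene, 19 of the 33 members had ACGTG in a promoter. The share by gene was not counted for all genes. The windows below show 5 members that changed with ISP-I, 3 lower in H460, 1 higher in A549 and ENO2, higher in H460, plus ADM, whose window holds GCGTG and not ACGTG; capitals mark 1 copy of the motif or of its reverse complement (CACGT). The LDHA match is palindromic and reads on both strands, and other copies within the windows are left in lower case. They lie at chr17:82228962-82228991 for SLC16A3, chr11:18394464-18394493 for LDHA, chrX:78104034-78104063 for PGK1, chr2:74834067-74834096 for HK2, chr12:6914450-6914479 for ENO2 and chr11:10304960-10304989 for ADM, each on the plus strand, and their motifs begin 68, 87, 202, 48, 118 and 101 bases before a listed start.
SLC16A3: cgccaggcggtgACGTGcgcgggggacgtg
LDHA: cagcccgactcaCACGTgggttcccgcacg
PGK1: gcggcgtgccggACGTGacaaacggaagcc
HK2: aatgggcgtgcgCACGTcactgatccggag
ENO2: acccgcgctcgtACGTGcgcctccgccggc
ADM: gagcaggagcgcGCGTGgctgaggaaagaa

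Members with and without ACGTG in a promoter had similar median changes. In H460 the 18 tested members with it had a median change of -0.45 and the 14 without it -0.39, and in A549 the medians were 0.00 over 19 members and 0.03 over 14. In H460, 1 member with the motif was called higher and 5 lower, beside 3 higher and 5 lower without it. Members without ACGTG could still carry GCGTG, as ADM does, and 31 of the 33 members had 1 of these cores in a promoter. The split therefore cannot set members with a CGTG core against members without it. It also leaves out the 6 members without a promoter at hand, VEGFA and NDRG1 among them. A match is a description of the letters and not evidence of binding.

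Of the 5 genes grouped as regulators of flux, GYS1, the glycogen synthase of muscle and most other tissues and a HIF target, changed most. Its product makes glycogen and is not a step of glycolysis. On log2(FPKM + 1), none of the 5 was called in A549, and in H460 the sole call was GYS1. GYS1 was at 25.3, 29.3 and 31.8 FPKM in H460 controls and at 4.10, 4.32 and 4.23 FPKM after ISP-I (-2.51, SE 0.12, adjusted p = 8.66e-07). In A549 it went from 14.7, 16.7 and 17.7 FPKM to 8.87, 8.34 and 7.87 FPKM (-0.89, SE 0.09, adjusted p = 6.61e-05), the largest decrease of the list in that line. All 6 ISP-I libraries lay under all 6 controls.

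The PFKFB enzymes make and remove fructose-2,6-bisphosphate, the activator of phosphofructokinase. PFKFB3, the form that mostly makes it, rose in H460 from 15.1, 16.3 and 15.4 FPKM to 31.3, 29.9 and 27.1 FPKM (0.88, SE 0.11, adjusted p = 0.000139), under the 2-fold limit on FPKM and past it after median-of-ratios scaling (1.15). In A549 it stood at 121 to 129 FPKM without and 130 to 140 FPKM with ISP-I (adjusted p = 0.132). PFKFB2 instead rose in A549, from 2.78 to 2.98 FPKM to 5.49 to 6.52 FPKM (0.87, SE 0.08, adjusted p = 6.38e-05), and PFKFB4 fell in H460 (-0.38, SE 0.11, adjusted p = 0.0117). PDK1, the kinase that shuts pyruvate out of the mitochondrial cycle, was at 1.52 to 2.28 FPKM in H460, where it did not pass, and rose in A549 from 0.365 to 0.458 FPKM to 0.681 to 0.807 FPKM (0.29, SE 0.06, adjusted p = 0.00449).

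HIF1A, the alpha subunit of HIF-1, rose in H460 with wide scatter. Its controls were at 25.9, 17.7 and 22.0 FPKM and its ISP-I libraries at 64.4, 95.2 and 40.5 FPKM. Every ISP-I library was above every control (1.499, SE 0.28, adjusted p = 0.00154), and the value ran from 1.20 (without ISP-I library 2) to 1.81 (without ISP-I library 3) as single libraries were dropped. In A549 it was at 51.6, 49.8 and 30.2 FPKM without and 50.7, 50.1 and 54.4 FPKM with ISP-I (0.27, SE 0.18, adjusted p = 0.234), or 0.03 without control 3. EPAS1, the alpha subunit of HIF-2, was at 35.9 to 47.4 FPKM over the 6 H460 libraries and did not pass (-0.17, adjusted p = 0.23), and fell in A549 from 37.5 to 39.7 FPKM to 29.1 to 31.1 FPKM (-0.37, SE 0.06, adjusted p = 0.00127). HIF1A thus went from 33.0% ± 4.55 to 61.3% ± 8.68 of the summed alpha subunits in H460 (SD, n = 3).

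The prolyl hydroxylases that mark HIF alpha for destruction are themselves HIF targets. EGLN3 (PHD3) fell in H460 from 2.40, 2.97 and 2.39 FPKM to 0.539, 0.563 and 0.741 FPKM (-1.15, SE 0.11, adjusted p = 2.22e-05) and stayed near 1 FPKM in all A549 libraries (-0.01, adjusted p = 0.917). Its H460 value was -0.95 under quantile normalization, -0.94 with the GC trend removed and -0.99 with the length trend removed, each of which ended the call. The ratio of means in H460 was a 4.21-fold decrease, and limma voom on reads gave -1.80 (adjusted p = 2.76e-05). EGLN1 (PHD2) fell in H460 at under 2-fold (-0.70, SE 0.15, adjusted p = 0.00307), with the overlap stated above.

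Calls among the 9 listed HIF targets outside glycolysis all pointed upward. They were 3 of 8 tested in H460 (37.5%, against 10.5% of all genes) and 2 of 9 in A549 (22.2%, against 4.2%). The median changes of the listed targets were 0.35 and 0.07. This direction was not shared by HIF targets at large, since a longer list with 36 genes tested, described below, held calls both ways in each line. ADM, which encodes the vasodilator adrenomedullin, had the largest log2 fold change of the whole list in both lines. It was at 4.27, 6.09 and 4.99 FPKM in H460 controls and at 51.1, 51.2 and 57.6 FPKM after ISP-I (3.16, SE 0.14, adjusted p = 6.17e-07). In A549 it went from 30.6, 29.3 and 31.3 FPKM to 248, 247 and 259 FPKM (3.01, SE 0.06, adjusted p = 7.84e-08), so treated H460 stood above untreated A549.

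VEGFA, the vascular growth factor, rose in H460. Its controls were at 3.91, 4.52 and 4.27 FPKM and its ISP-I libraries at 11.9, 10.7 and 12.5 FPKM (1.28, SE 0.11, adjusted p = 1.78e-05). In A549 it was at 3.86, 3.65 and 3.51 FPKM without and 4.16, 3.24 and 3.72 FPKM with ISP-I (0.01, SE 0.09, adjusted p = 0.963), overlapping, with a sign that turned under median-of-ratios scaling.

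KDM3A, a histone H3 lysine demethylase, rose in H460 from 2.94, 2.58 and 2.67 FPKM to 10.7, 12.7 and 7.47 FPKM (1.57, SE 0.18, adjusted p = 7.11e-05) and in A549 from 2.67, 3.03 and 2.46 FPKM to 5.62, 5.37 and 5.63 FPKM (0.82, SE 0.08, adjusted p = 8.75e-05). NDRG1, a stress-responsive gene, rose in A549 from 4.71, 4.65 and 5.51 FPKM to 12.8, 12.5 and 13.0 FPKM (1.21, SE 0.08, adjusted p = 8.97e-06) and by less in H460 (0.46, SE 0.12, adjusted p = 0.00824). All treated libraries of both genes were above the controls of their line.

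The other 5 targets were not called in either line. P4HA1, a collagen prolyl hydroxylase, fell in H460 from 11.1 to 13.9 FPKM to 5.53 to 8.01 FPKM (-0.78, SE 0.15, adjusted p = 0.00161). BNIP3, a mitophagy receptor, rose slightly in A549, from 17.4 to 18.7 FPKM to 22.9 to 24.2 FPKM (0.36, SE 0.06, adjusted p = 0.00152). BNIP3L, its relative, and ANKRD37 passed in neither line. CA9, the carbonic anhydrase that is among the most hypoxia-dependent transcripts known, was at 0 to 0.167 FPKM in H460 controls, 0 in all 3 H460 ISP-I libraries and 0.0423 to 0.477 FPKM in A549. Of the exonic bases of ANKRD37 and CA9, 40.4% and 35.7% lie opposite exons of another gene, and whether strand was used in counting is not stated.

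**Figure D4:**
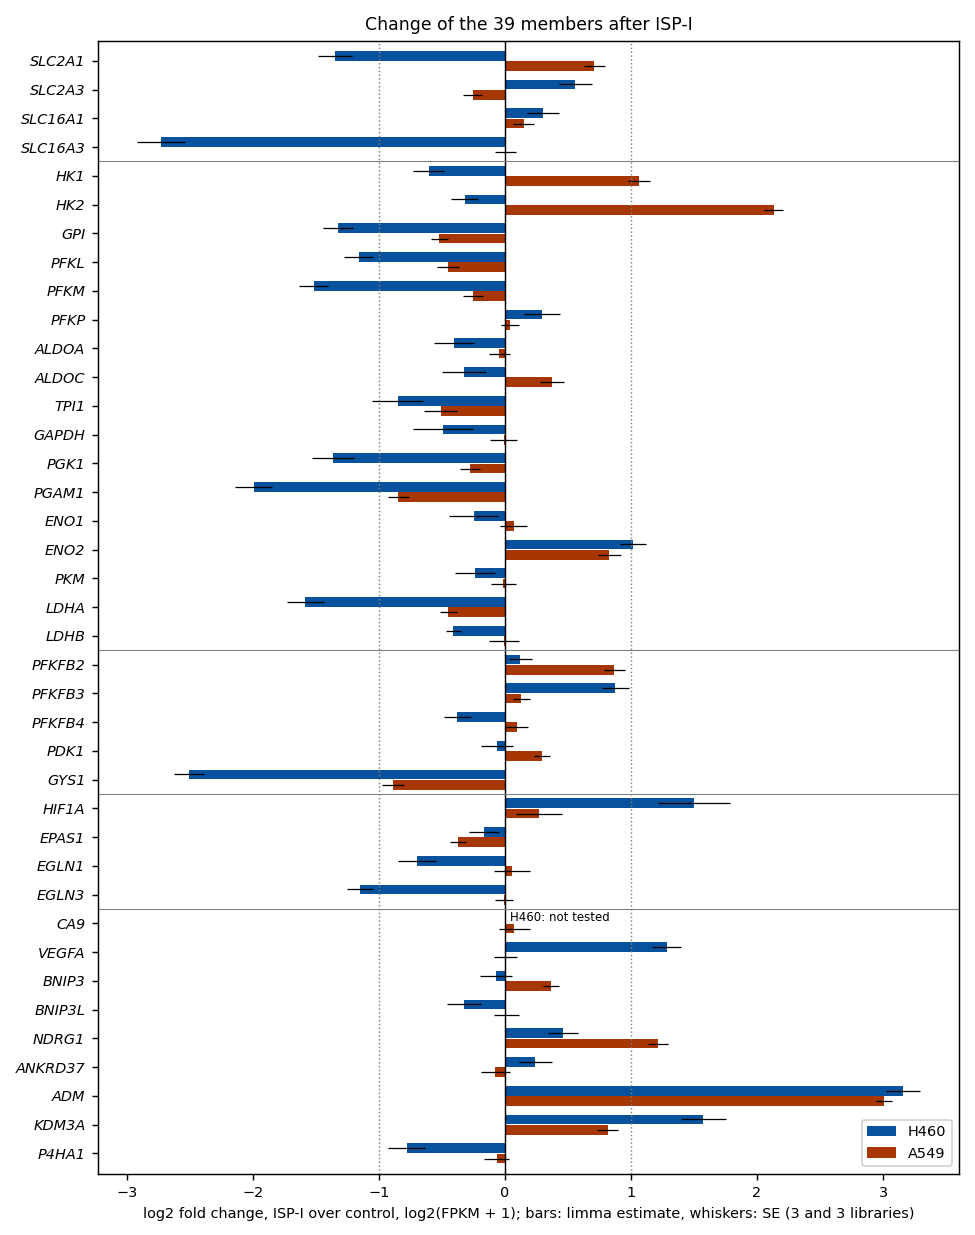
Log2 fold change after ISP-I on the log2(FPKM + 1) scale for all 39 members in H460 and A549, in the order transporters, enzymes, regulators, HIF switch and other targets (grey lines between), with whiskers for the SE and dotted lines at 2-fold. Most blue H460 bars among the enzymes point left down to -1.99 for PGAM1, HK1 and HK2 point right in A549, and ADM stands out at about 3 in both.

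The change itself differed between the lines for 12 members. By the study's viability assay at 48 h, the inhibitory concentration lay below the 10 μM used here for H460 and above it for A549. The part of this in the differences was not tested. A term for the difference (H460 minus A549) was called higher for 2 members, HIF1A and VEGFA (5.13%, against 5.93% of 13953 genes). It was called lower for 10 (25.6%, against 10.1%). The upward share thus lay near that of all genes, and the downward share lay above it. The lower ones, with the difference on the log2 scale, were SLC16A3 (-2.73), HK2 (-2.45), SLC2A1 (-2.06), HK1 (-1.67), GYS1 (-1.62), PFKM (-1.26), PGAM1 (-1.15), EGLN3 (-1.14), LDHA (-1.13) and PGK1 (-1.08). This comparison uses the same libraries as those within each line, and it carries the shift in H460. Under median-of-ratios scaling the calls were 5 higher and 5 lower: SLC16A3, HK2, SLC2A1, HK1 and GYS1 were still lower, PFKM (-0.97), PGAM1 (-0.83), EGLN3 (-0.999), LDHA (-0.82) and PGK1 (-0.77) were under the 2-fold limit though past the adjusted p, and KDM3A, PFKFB3 and SLC2A3 joined HIF1A and VEGFA. With limma voom on reads the calls were 5 higher and 7 lower. Over all genes, median-of-ratios scaling gave 1300 higher and 827 lower of 13953, and limma voom 2114 and 1909 of 13912. For ADM the difference was 0.15 (SE 0.15, adjusted p = 0.4) and for ENO2 0.19 (SE 0.13, adjusted p = 0.223). The HIF1A difference, 1.23 (SE 0.38, adjusted p = 0.0172), fell to 0.93 without H460 ISP-I library 2 and was then not called.

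The lines already differed before treatment. In non-treated H460 against non-treated A549, 6 members were called higher (15.4%, against 5.47% of genes) and 4 lower (10.3%, against 8.5%). The share called lower lay near that of all genes. HK2 had a 29.2-fold higher mean in H460 (log2 fold change 3.65, SE 0.08, adjusted p = 1.05e-12) and SLC16A3 a 19.7-fold higher one (4.06, SE 0.15, adjusted p = 2.26e-10), and ALDOC, PFKM, PDK1 and HK1 were higher too. PFKFB3 was 7.96-fold (-2.91, SE 0.08, adjusted p = 1.32e-11), ENO2 8.07-fold, ADM 5.94-fold and BNIP3L 3.85-fold lower in H460. The control libraries of this comparison are also those of the changes within each line, so the 2 sets of values are not independent.

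Neighboring branches of sugar metabolism were counted on further lists, to be read beside the shares of all genes called (10.5% upward and 15.2% downward in H460, 4.2% and 3.51% in A549). Those shares are for FPKM. Counts under median-of-ratios scaling have another background: 1957 upward and 1511 downward of 13423 genes in H460, and 519 and 507 of 13705 in A549. Glycogen metabolism, with 16 genes tested, had 4 calls downward (25%) and none upward in H460, and 3 downward (18.8%) and 1 upward in A549. Under median-of-ratios scaling the H460 calls were 2 downward and 1 upward, PPP1R3C. PYGB, glycogen phosphorylase of brain, went from 230 to 265 FPKM to 56.1 to 63.6 FPKM in H460 (-2.04) and was -1.16 in A549, and GYG2, a primer of glycogen, was at -2.40 and -1.40. The pentose phosphate pathway, with 10 genes, had 3 downward calls in H460, also 3 under median-of-ratios scaling, and none upward in either line. PGD, the phosphogluconate dehydrogenase, had log2 fold changes of -1.38 and -0.53. Gluconeogenesis, with 5 genes tested, had 4 downward calls in H460 (3 under median-of-ratios scaling) and 2 in A549 and none upward, with PCK2 at -1.70 and -1.35. Mitochondrial pyruvate entry, with 10 genes, had 5 downward calls and 1 upward in H460, which became 3 and 2 under median-of-ratios scaling, and 1 call in A549, upward. PDP2, a pyruvate dehydrogenase phosphatase, rose in both (1.34 and 1.35). The remaining glycolytic isozymes and transporters, 13 tested, had 2 downward calls in H460 and none in A549, and 1 upward call in each, ENO3 in both (1.52 and 1.14). Under median-of-ratios scaling H460 had 0 downward and 2 upward, ENO3 and TIGAR.

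TXNIP, an arrestin that curbs glucose uptake and is transcribed under the glucose sensor MondoA, rose from 15.3 to 18.6 FPKM to 176 to 197 FPKM in H460 (3.36, adjusted p = 3.4e-07) and from 0.0376 to 0.117 FPKM to 2.65 to 3.62 FPKM in A549 (1.96, adjusted p = 2.7e-06). Its relative ARRDC4 rose as well (3.05 and 1.28). These were the 2 genes called, both higher, of the 5 on the MondoA list in each line. Among 12 tested HIF partners and genes of HIF degradation, CITED2, which competes with HIF for its coactivators, was the 1 call in each line on FPKM, with EP300 joining in H460 under median-of-ratios scaling (CITED2 3.94 in H460, from 9.55 to 11.3 FPKM to 158 to 206 FPKM, and 1.67 in A549). Further HIF targets, 36 of them tested, had 6 upward (16.7%) and 8 downward (22.2%) calls in H460, and 3 (8.33%) and 4 (11.1%) in A549. Under median-of-ratios scaling they were 8 and 7 in H460 and 2 and 4 in A549. Log2 fold changes in H460 and A549 were 3.27 and 0.82 for KDM5B, -2.77 and -1.54 for PLOD1, and 1.68 and 1.48 for STC2.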

How the data were processed

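Libraries of total RNA were made with the TruSeq RNA kit. Per the labels and the submitters' processing notes, the authors aligned reads with HISAT2 to hg38 and counted genes with HTSeq 0.9.1; strand and overlap settings are not given in the sources used here. The deposited table holds FPKM per gene and library, beside each gene's length in bases. FPKM times length gave whole reads (tolerance 0.01) for 100% of values. Columns name line and treatment but carry no title's replicate number, and 4 line fragments without a gene were left out. Here log2(FPKM + 1) was tested for genes whose mean reached 0.1 FPKM with limma-trend 3.58.1 (R 4.3.3), within each line and, for the difference and the untreated lines, over 12 libraries, with Benjamini-Hochberg adjustment over all genes; a call needed over 2-fold and adjusted p under 0.05. The code was tested on simulated data. Members and lists were chosen with earlier results of these data known, and all p-values are to be read so. Full statistics are given for members called in a line or in the difference, plus GAPDH, HIF1A and VEGFA, and, on other lists, for at most 3 genes per line with the smallest adjusted p, some of which are not reported here. Alternatives were the pseudocount, the filter, the scaling, limma voom on reads, a single fit, each library left out and, added after the data were seen, removal of trends with GC content or length.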

Additional observations from a re-analysis of the deposited data

Results flagged for a closer look

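For 12 members the change after ISP-I differed between H460 and A549 by the interaction term of limma. The differences in log2 fold change (H460 minus A549) were -2.06 for SLC2A1, -2.73 for SLC16A3, -1.67 for HK1, -2.45 for HK2, -1.26 for PFKM, -1.08 for PGK1, -1.15 for PGAM1, -1.13 for LDHA, -1.62 for GYS1, 1.23 for HIF1A, -1.14 for EGLN3 and 1.28 for VEGFA. SLC2A1 and HK1 passed the adjusted p in opposite directions in the 2 lines, as did HK2, whose decrease in H460 did not pass after median-of-ratios scaling. The members had a median transcript GC content of 52.7% and a median listed length of 5918 bases, against 48.5% and 5069 bases for the genes tested in H460. With the GC trend removed the difference was called for 3 members higher and 7 lower, and with the length trend removed for 2 and 6. Over all genes the same fits called 1114 higher and 874 lower of 13933, and 1150 higher and 919 lower of 13953. The part of GC content and length in single members was not tested further.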

How the results depend on the processing

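For the members given with full statistics, 749 values under an alternative kept their direction and their side of the threshold, 28 were no longer called and 8 turned sign. Other members gained calls, among them PFKFB3, LDHB and TPI1 in H460, and PFKFB2 and KDM3A in A549, and of all 38 tested in H460 another 5, none past the adjusted p, turned sign under median-of-ratios scaling. At any fold change the counts higher and lower were 8 and 17 in H460, 11 and 10 in A549, 5 and 21 for the difference and 17 and 14 between untreated lines. For the last 2 comparisons the share of all genes at any fold change was not counted, so these counts have no background beside them. The median difference of all genes was itself -0.16. The difference called higher numbered 1 with no filter, 5 under median-of-ratios scaling, 5 with limma voom, and 1 to 2 with 1 library left out (1, without HIF1A, on leaving out H460 ISP-I library 2). It called 5 lower under median-of-ratios scaling and 6 with the length trend removed, a choice made after seeing the data, like the GC trend. The 8 turned signs were in A549: GAPDH was 0.19 under quantile normalization, 0.04 with the GC trend removed and -0.07 to 0.07 with 1 library left out, turning without control 3, and VEGFA was -0.02 under median-of-ratios scaling, -0.01 under quantile normalization, -0.03 with limma voom and -0.06 to 0.08 with 1 library left out, turning without control 3 and without ISP-I library 1. All of these were far from the threshold. Calls over all genes, 1409 upward with 2047 downward for H460 and 575 with 481 for A549, were 3056 and 2769, and 1316 and 1277, with limma voom, and 2322 and 3464, and 1336 and 1062, with a pseudocount of 0.1. Those of the difference, 827 and 1407, were 1300 and 827 under median-of-ratios scaling. The causes of these shifts were not tested. No paired analysis was possible because the columns carry no replicate number of the labels. At this depth CA9, with 0 to 4 reads in each H460 library, allowed no comparison in H460.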
